A study of Mus musculus with 3 samples.

Results

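A set of 10 genes that make, convert or inactivate steroid hormones was examined for accessible chromatin in the mouse uterus on gestation day 4. They were Cyp11a1, Hsd3b1, Hsd17b1, Cyp19a1, Srd5a1, Hsd17b4, Hsd17b2, Akr1c18, Hsd11b1 and Hsd11b2. The members are the peaks of 1 deposited list that overlap the annotated span of one of these 10 genes or 10 kb on either side of it, and 4 of the 12413 peaks did so. The uteri came from wild-type C57BL/6J females aged 6 to 10 weeks that had been mated with fertile males and received no treatment, and blastocysts were found in their uterine flush. FAIRE-seq, a sequencing assay for open chromatin, was run on 3 samples of this single group, numbered 1 to 3, from frozen whole uterus. In full, formaldehyde-assisted isolation of regulatory elements, it recovers the DNA that is not crosslinked to protein, which is mostly nucleosome-poor DNA at active promoters and enhancers. The columns of the peak list belong to no one sample, which leaves every value without a spread between mice. Nothing was tested between samples, and library depth is unknown. Whole uterus mixes epithelium, stroma, muscle, vessels and immune cells, so fewer cells with an open site and a less open site in each cell cannot be told apart.

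Steroid hormones are built from cholesterol. Cyp11a1 cuts the cholesterol side chain to give pregnenolone, Hsd3b enzymes turn pregnenolone into progesterone, and Cyp19a1 (aromatase) with reducing dehydrogenases such as Hsd17b1 forms oestradiol. In mice, progesterone and oestradiol for early pregnancy come chiefly from the ovary, and the uterus is their target. Target tissues also set how much hormone reaches the receptors: oxidising dehydrogenases (Hsd17b2, Hsd11b2) and reductases (Akr1c18, Srd5a1) change active steroids within the cell, and Hsd11b1 can regenerate active glucocorticoid.

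Of the 10 enzyme genes, 4 had a peak inside them or at most 10 kb away: Hsd11b2, Hsd17b4, Srd5a1 and Hsd17b1, with 1 peak each. Cyp11a1, Hsd3b1, Cyp19a1, Hsd17b2, Akr1c18 and Hsd11b1 had none. Among all 21523 protein-coding genes, 57.6% had a peak counted in the same way, so the share of the enzyme genes (40.0%) was below that of genes in general, over a list of only 10. With the window narrowed to 1 kb around either annotated end, 3 of the 10 had a peak (Hsd11b2, Hsd17b4 and Srd5a1), against 44.5% of protein-coding genes. Many peaks lie between close neighbours, and only 2 of the 10, Hsd11b2 and Hsd17b4, were the protein-coding gene whose end was nearest to the summit of such a peak, against 45.9% of protein-coding genes. Just inside the 10 kb limit was the peak 7.47 kb from Hsd17b1 (8.67-fold), and just outside it a peak 14.2 kb from the same gene on its other side (4.16-fold). Among the 6 genes without a counted peak, the nearest one lay 42.8 kb from Hsd17b2.

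**Figure D1:**
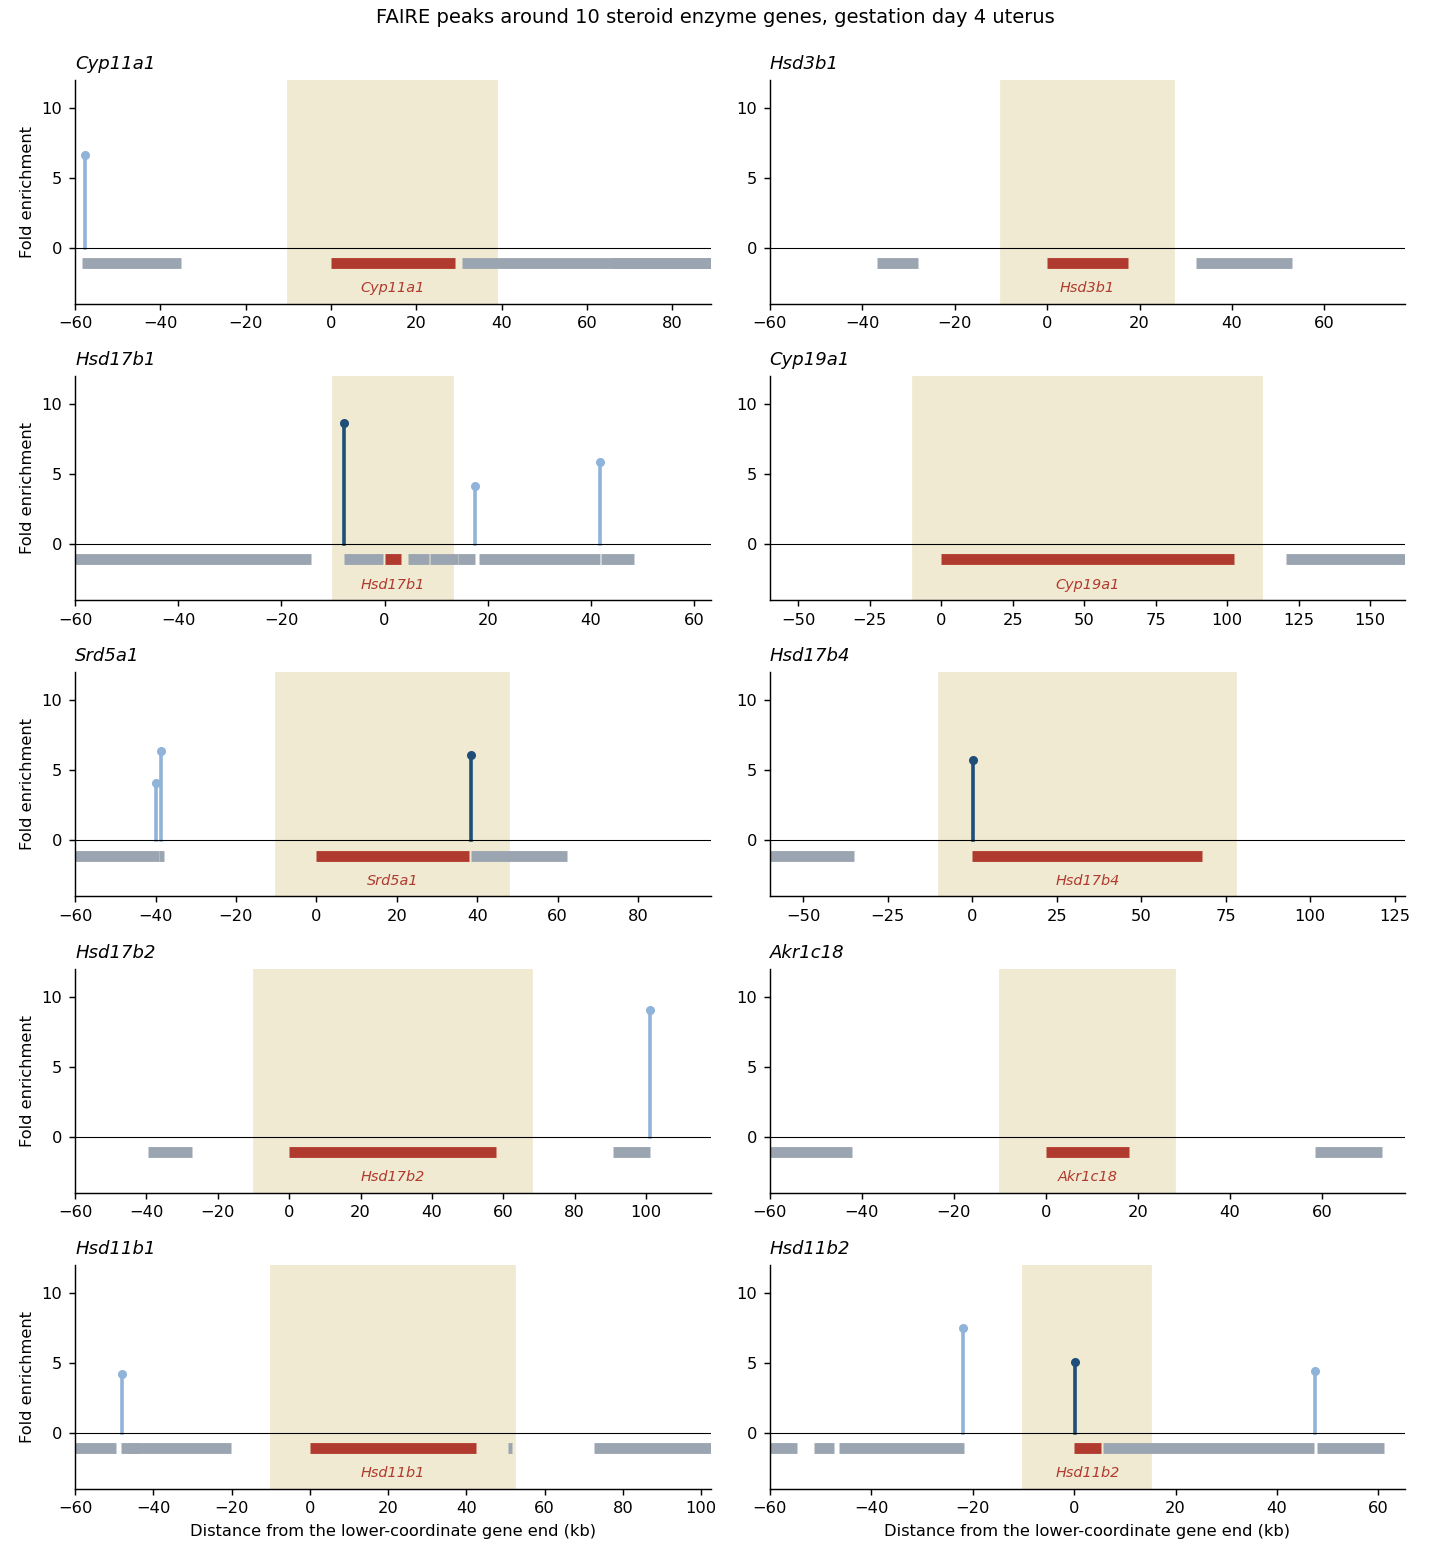
Peaks within 60 kb of each of the 10 genes. The horizontal axis is the distance in kb from the lower-coordinate end of the gene, stems give the fold enrichment of each peak (dark blue where counted, light blue where outside the 10 kb limit), red bars are the named gene, grey bars other protein-coding genes and the shaded band the gene with 10 kb on each side. A dark stem stands at 1 end of Hsd11b2, Hsd17b4 and Srd5a1 and beside Hsd17b1, and the other 6 bands are empty.

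Counts of this kind went with gene length. The share of protein-coding genes with a peak rose from 34.8% in the shortest length quartile through 58.6% and 64.5% to 72.6% in the longest. A longer gene has a wider window, and the part of window width in this rise was not tested. The 6 enzyme genes without a peak ran from Hsd3b1 (17439 bp) and Akr1c18 (18032 bp), close to the median of 17374 bp, to Cyp19a1 (102228 bp). In the quartile from 17375 to 45061 bp, only Srd5a1 of 5 enzyme genes had a peak, and in the longest quartile only Hsd17b4 of 3. Both short members, Hsd11b2 (5243 bp) and Hsd17b1 (3221 bp), had one.

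Srd5a1 encodes a reductase that acts on testosterone and progesterone. Its peak was the widest of the 4 and covered its start site together with that of Nsun2, an RNA methyltransferase gene transcribed in the opposite direction. The peak ran from 69611424 to 69612270 on chromosome 13 (GRCm38), 847 bp, wider than or as wide as 94.1% of all peaks. Its pileup, the authors' signal at the summit, was 61 over a local background of 9.22, and its fold enrichment over that background, a value the authors give for each peak, was 6.07 (54.0th percentile of the list). In the RefSeq promoter table (GRCm38.p6), which gives 250 bases before and 50 after a start site, the 2 start sites were 553 bp apart. The peak covered 290 of the 300 bases of the Srd5a1 window and all 300 of the Nsun2 window. The summit lay 92 bp downstream of the Nsun2 start and 645 bp from that of Srd5a1, so this peak cannot be given to Srd5a1 alone. The 2 windows are printed 5′ to 3′ with each CpG dinucleotide in capitals, because CpG content separates them from the windows without a peak that follow further below.

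The Srd5a1 window lies at chr13:69611414-69611713 on the minus strand and the Nsun2 window at chr13:69611766-69612065 on the plus strand.
Srd5a1: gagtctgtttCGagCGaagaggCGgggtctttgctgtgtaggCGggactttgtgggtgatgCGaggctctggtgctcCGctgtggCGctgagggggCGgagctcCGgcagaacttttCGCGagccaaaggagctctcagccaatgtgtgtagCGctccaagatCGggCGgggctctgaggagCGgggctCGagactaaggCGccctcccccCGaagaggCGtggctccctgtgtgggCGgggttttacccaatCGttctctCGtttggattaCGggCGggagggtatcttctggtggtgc
Nsun2: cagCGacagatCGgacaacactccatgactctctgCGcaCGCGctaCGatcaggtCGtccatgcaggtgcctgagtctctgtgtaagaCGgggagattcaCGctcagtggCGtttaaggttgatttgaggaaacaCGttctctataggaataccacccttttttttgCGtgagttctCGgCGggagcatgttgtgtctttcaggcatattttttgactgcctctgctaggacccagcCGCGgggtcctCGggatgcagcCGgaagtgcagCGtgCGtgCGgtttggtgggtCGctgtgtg
The Srd5a1 window held 24 CpG dinucleotides and the Nsun2 window 22, with a GC content of 63.0% and 55.3%. A GGGCGG box, the core bound by Sp and Klf factors, occurred 4 times in the Srd5a1 window and in 35.7% of all 32851 promoter windows at least once, on either strand. The Nsun2 window had none of the 13 short motifs searched.

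Hsd17b1 makes oestradiol from oestrone. Of the 4 peaks, the one counted for it had the highest pileup, fold and −log10 q (the significance of the peak after correction for all sites, larger where stronger), and lay farthest from its gene. The peak (chromosome 11, 101069906 to 101070494, 589 bp) had a pileup of 88, a fold enrichment of 8.67 (82.0th percentile) and a −log10 q of 50.3. Its summit lay 7867 bp from the nearer end of Hsd17b1 and 7 bp from the start site of Naglu, a lysosomal glucosaminidase gene whose body runs from the peak towards Hsd17b1. No peak overlapped Hsd17b1 itself, and the next ones were 4.16-fold and 5.84-fold peaks more than 10 kb beyond its other end. The Naglu window is shown because it is the promoter under this peak, and it lies at chr11:101069844-101070143 on the plus strand, with 238 of its 300 bases inside the peak.
Naglu: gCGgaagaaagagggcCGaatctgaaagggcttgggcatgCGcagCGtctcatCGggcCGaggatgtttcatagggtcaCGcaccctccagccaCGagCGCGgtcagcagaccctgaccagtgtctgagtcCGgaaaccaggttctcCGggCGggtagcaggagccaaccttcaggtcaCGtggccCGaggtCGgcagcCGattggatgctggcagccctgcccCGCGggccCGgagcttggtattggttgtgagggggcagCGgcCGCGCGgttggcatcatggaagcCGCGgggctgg
It held 26 CpG dinucleotides (GC content 66.3%), 1 GGGCGG box, 2 CCAAT boxes, 1 CACGTG E-box and 1 GCATGCGC match of the Nrf1 type. The last occurred in 2.71% of all promoter windows and the E-box in 7.15%.

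The genes without a peak included the enzyme that starts the pathway. Cyp11a1 had no peak in its 29.0 kb or near it, and the closest lay 57.3 kb away at Sema7a (6.64-fold), so that 27.8% of protein-coding genes were farther from a peak. Hsd3b1 was the most remote of the 10: its closest peak, nearest to the end of Wars2 (4.87-fold), lay 281 kb away, and 12.2% of protein-coding genes were farther. Cyp19a1, the longest of the 10 genes at 102228 bp, had its closest peak 104 kb away (4.12-fold, inside or near Dmxl2, 7369 bp from its end). Akr1c18 breaks down progesterone and is known to be held low in the mouse corpus luteum until shortly before birth. Its closest peak lay 214 kb away at Net1 (3.62-fold). Over all protein-coding genes the upper quartile of this distance was 75.7 kb, so Hsd3b1, Cyp19a1 and Akr1c18 lay beyond it and Cyp11a1 did not.

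Promoter sequence was read next. The promoter table held windows for 6 of the 10 enzyme genes, 9 windows in all. Of the 6 genes only Srd5a1 had a window with a peak, against 41.5% of the protein-coding genes in that table. By window this was 1 of 9, against 27.5% of all 32851 windows. Promoter windows of Hsd11b2, Hsd17b1, Hsd17b2 and Hsd17b4 were not analysed here. These counts thus leave out Hsd11b2 and Hsd17b4, which both had a peak within 1 kb of an annotated end. The 8 windows without a peak had 1 to 7 CpG dinucleotides, with a GC content of 37.7% to 58.3%. The medians were 7 and 52.7% over all windows and 27 and 65.7% over the windows with a peak. Windows of 5 genes follow, again with CpG in capitals, each at the start site farthest upstream in the table.
Cyp11a1: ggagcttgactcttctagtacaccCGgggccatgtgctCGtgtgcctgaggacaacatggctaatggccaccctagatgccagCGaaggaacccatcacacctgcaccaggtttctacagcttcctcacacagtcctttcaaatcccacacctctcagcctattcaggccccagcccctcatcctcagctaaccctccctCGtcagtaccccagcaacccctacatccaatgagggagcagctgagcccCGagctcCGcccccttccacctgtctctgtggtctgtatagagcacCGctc
Hsd3b1: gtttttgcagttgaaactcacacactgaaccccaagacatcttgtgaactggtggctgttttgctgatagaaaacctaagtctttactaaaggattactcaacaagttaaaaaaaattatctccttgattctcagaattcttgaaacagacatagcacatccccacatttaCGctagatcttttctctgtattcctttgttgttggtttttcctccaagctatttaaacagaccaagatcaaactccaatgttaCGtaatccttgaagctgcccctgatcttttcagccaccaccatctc
Cyp19a1: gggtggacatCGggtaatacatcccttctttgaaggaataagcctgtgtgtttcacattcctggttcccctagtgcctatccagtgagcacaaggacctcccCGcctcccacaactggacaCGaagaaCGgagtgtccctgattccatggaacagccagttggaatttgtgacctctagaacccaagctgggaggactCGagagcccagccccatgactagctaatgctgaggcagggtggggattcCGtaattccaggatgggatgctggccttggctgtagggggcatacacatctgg
Akr1c18: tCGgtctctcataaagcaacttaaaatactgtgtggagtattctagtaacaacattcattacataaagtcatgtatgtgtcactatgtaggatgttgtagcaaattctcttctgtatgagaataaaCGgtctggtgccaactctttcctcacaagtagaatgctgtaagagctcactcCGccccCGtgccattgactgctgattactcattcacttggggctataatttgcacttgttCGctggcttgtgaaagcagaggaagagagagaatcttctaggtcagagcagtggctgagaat
Hsd11b1: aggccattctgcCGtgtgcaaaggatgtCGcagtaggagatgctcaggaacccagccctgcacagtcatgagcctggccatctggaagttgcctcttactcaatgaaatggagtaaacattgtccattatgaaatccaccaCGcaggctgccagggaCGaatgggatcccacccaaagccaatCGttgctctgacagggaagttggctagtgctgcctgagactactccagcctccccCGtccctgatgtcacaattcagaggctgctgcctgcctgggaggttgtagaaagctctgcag
They lie at chr9:57997774-57998073 (plus strand), chr3:98859745-98860044, chr9:54268115-54268414, chr13:4150597-4150896 and chr1:193242311-193242610 (all 4 minus strand), in GRCm38.p6. Cyp11a1 held 7 CpG dinucleotides, Hsd3b1 2, Cyp19a1 6, Akr1c18 5 and Hsd11b1 6. The other window of Cyp11a1 held 1, and the other windows of Cyp19a1 held 2 and 6.

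CpG count and peaks went together across the whole promoter table. Of 7656 windows with 0 to 2 CpG dinucleotides 0.0392% overlapped a peak, and the share was 0.271% with 3 to 5, 4.10% with 6 to 10, 25.1% with 11 to 15, 51.9% with 16 to 20 and 82.3% with 21 or more. Windows with at most 7 CpG dinucleotides, the highest count among the 8 enzyme windows without a peak, overlapped one in 66 of 16869 cases (0.391%). The 8 enzyme windows without a peak thus belong to a range of CpG count in which a peak was rare in this list. The part of CpG content in the absence of peaks at these genes was not tested.

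**Figure D2:**
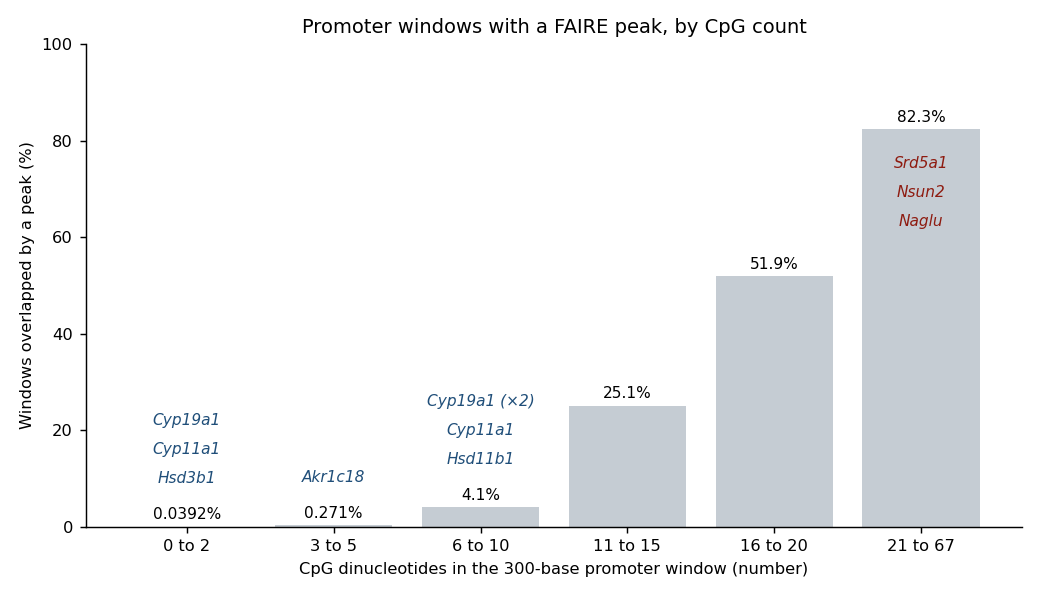
Share of the 32851 RefSeq promoter windows that a peak overlapped, by the number of CpG dinucleotides in the window. Names in dark red are windows with a peak described here and names in blue the 8 enzyme gene windows without one (×2 marks 2 windows of the gene), and all the blue names stand in the 3 bins with shares of 4.10% or less.

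The AAGGTCA half-site, to which steroidogenic factor 1 binds, was in none of the 9 windows and in 4.72% of all windows. The ACANNNTGT core of the progesterone and glucocorticoid response element was in the Hsd3b1 window and in 1 of the 3 Cyp19a1 windows, and in 6.85% of all windows. The TCANNNTGA core of the oestrogen response element was in none (7.62% of all windows). TATAAA matches stood in 2 of the 3 Cyp19a1 windows, 2 in each, and in 13.6% of all windows. Besides the Srd5a1 window, GGGCGG was in the printed Cyp11a1 and Akr1c18 windows, which had no peak, with 1 match in each. A match is a run of letters on either strand and not a bound site.

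Hsd11b2 and Hsd11b1 run the same reaction in opposite directions. Hsd11b2 inactivates glucocorticoids and thereby shields mineralocorticoid receptors, and Hsd11b1 mainly regenerates the active hormone. Hsd11b2 had a peak inside the gene (chromosome 8, 105518876 to 105519159), with its summit 294 bp from the lower-coordinate end. It was the weakest and narrowest of the 4, with a pileup of 44, a fold enrichment of 5.06 (37.6th percentile), a −log10 q of 15.9 and a width of 284 bp (19.2nd percentile). Flanking peaks stood at 7.48-fold and 4.39-fold, 21.5 kb below and 47.3 kb above that end. Hsd11b1 had no peak within 10 kb, and its closest was 47.9 kb away (4.22-fold, 38 pileup), 13 bp from an end of A130010J15Rik. The 2 genes also differed in their surroundings, with 29 peaks and 50 protein-coding genes in the 1 Mb around Hsd11b2 and 6 peaks and 11 genes around Hsd11b1.

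Hsd17b2 and Hsd17b4 can both oxidise oestradiol to the weaker oestrone. Hsd17b2 is a membrane enzyme known to be induced by progesterone in human endometrium, and Hsd17b4 is a peroxisomal enzyme that also serves fatty acid breakdown in most tissues. Hsd17b4 had a peak inside the gene (chromosome 18, 50128224 to 50128567, 344 bp), its summit 203 bp from the lower-coordinate end. With a pileup of 45, a fold enrichment of 5.75 (49.3rd percentile) and a −log10 q of 18.6, it was close to the median peak by fold (5.80) and lower than it by pileup (55) and −log10 q (22.7). No other protein-coding gene overlapped it. Hsd17b2 had no peak within 10 kb, and its closest, at 9.02-fold, lay 42.8 kb away, 60 bp from an end of Mphosph6.

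As a set, the 4 peaks had medians close to those of the whole list. Their fold enrichment ran from 5.06 to 8.67, with a median of 5.91, against a median of 5.80 (interquartile range 4.37 to 7.79) over all peaks. Their pileup had a median of 53 against 55, their width a median of 466.5 bp against 427 bp and their −log10 q a median of 22.4 against 22.7. Local background was at most 9.27 at the 4 peaks, against a median of 8.59 and an upper quartile of 10.2 over all peaks, and those at Hsd17b1 (9.27) and Srd5a1 (9.22) were above that median. The 2 peaks nearest to an enzyme gene, at Hsd11b2 and Hsd17b4, were below the median fold, and the 2 shared with or belonging to a neighbour, at Srd5a1 and Hsd17b1, were above it.

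**Figure D3:**
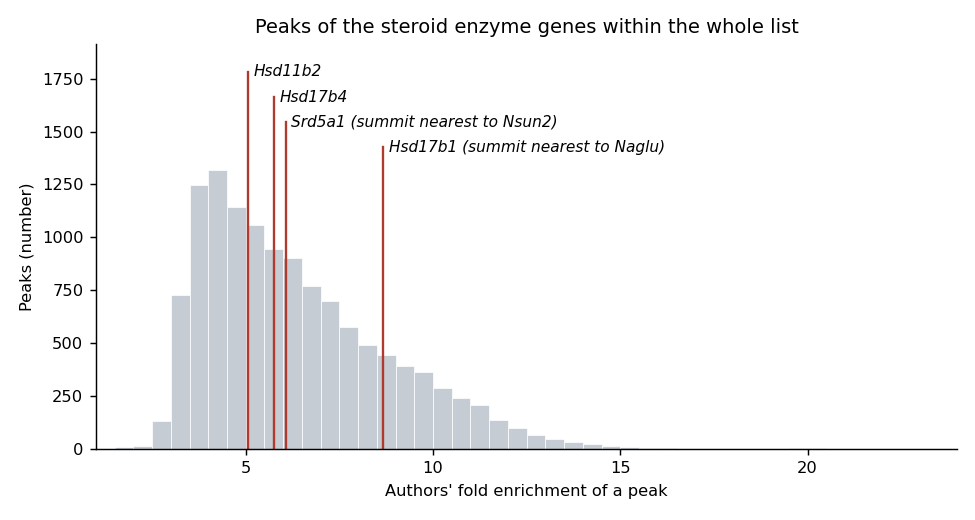
Number of peaks in each 0.5-wide step of the authors' fold enrichment (grey bars, all 12413 peaks), with red lines at the peaks counted for Hsd11b2 (5.06), Hsd17b4 (5.75), Srd5a1 (6.07) and Hsd17b1 (8.67). The lines of Hsd11b2, Hsd17b4 and Srd5a1 fall between the quartiles of all peaks (4.37 and 7.79). The line of Hsd17b1 lies above the upper quartile, at the 82.0th percentile.

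The rest of the pathway was counted in the same way. Of 53 other genes of steroid metabolism and its control found in the gene table, 21 had a peak inside them or at most 10 kb away (39.6%, against 57.6% of protein-coding genes). None of the 9 other synthesis enzymes had one, among them Cyp11b1, Cyp11b2, Cyp17a1 and Cyp21a1, which make corticosteroids and androgens in adrenal and gonad, and 5 further Hsd3b genes. These 9 genes had a median length of 8940 bp, against 17374 bp over all protein-coding genes. That median falls in the length quartile from 5882 to 17374 bp, in which 58.6% of protein-coding genes had a peak. The part of gene length in this count was not tested. Reductases and aldo-keto reductases had 1 of 11: Srd5a3, which also serves protein glycosylation, at 8.86-fold, whereas Akr1b7, Akr1c12, Akr1c13 and Akr1c14 had none. Hsd3b and Akr1c genes stand in clusters of close relatives, so the counts of 0 of 9 and 1 of 11 are not of that many separate places in the genome. How reads that match several places were treated is not given in the sources used here. The longest run of bases that the promoter window of Hsd3b1 or of Akr1c18 shared with that of a relative was 10. Sequence outside these windows was not compared. The part of reads that match several places in the absence of peaks at Hsd3b1 and Akr1c18 was not tested.

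Cholesterol delivery and electron donor genes had a peak in 6 of 8, led by Por (9.73-fold), the electron donor of microsomal cytochromes P450, H6pd (8.96), which supplies NADPH to Hsd11b1, Tspo (7.96) and Fdx1 (7.70), the ferredoxin that feeds Cyp11a1. The H6pd and Fdx1 summits were 25 bp and 344 bp from an end of those genes, whereas the Por summit lay 19074 bp from its nearest end and the Tspo peak lay at Mcat. An end is not always an annotated start site. A promoter window of Por and one of Fdx1 overlapped a peak, and none of H6pd did. Cyb5a and Star, the carrier that brings cholesterol into mitochondria, had none. Other dehydrogenases of the Hsd17b family, listed together with Dhrs9, had a peak in 4 of 10: Hsd17b8 (7.24-fold, listed as H2-Ke6, summit 16 bp from an end of Ring1), Hsd17b7 (5.87), Hsd17b14 (4.08, nearest to Bcat2) and Hsd17b12 (3.62). Dhrs9, Hsd17b10, Hsd17b11 and Hsd17b13 had none.

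Conjugation and breakdown genes had a peak in 4 of the 8 found in the gene table. Among them were Ugt1a6a (10.2-fold, summit nearest to Dnajb3), Sult2b1 (4.75) and Cyp1b1, which makes catechol oestrogens (3.28). Cyp1a1, Cyp7b1, Sult1e1 and Ugt2b34 had none. Transcription factor genes that control steroid enzymes had a peak in 6 of 7: Nr4a1 (9.54-fold), Cebpb (6.27), Gata4 (5.96), Nr5a2 (5.87), Nr5a1 (4.32) and Gata6 (3.84), and Nr0b1 had none. Only the Cebpb and Nr4a1 genes had a peak within 1 kb of an annotated end, and the nearest end lay 1749 bp to 15692 bp from the strongest summit of the other 4. Nr4a1 had 4 peaks, and its 9.54-fold summit was not the one at an end but lay 7345 bp from the nearest.

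**Figure D4:**
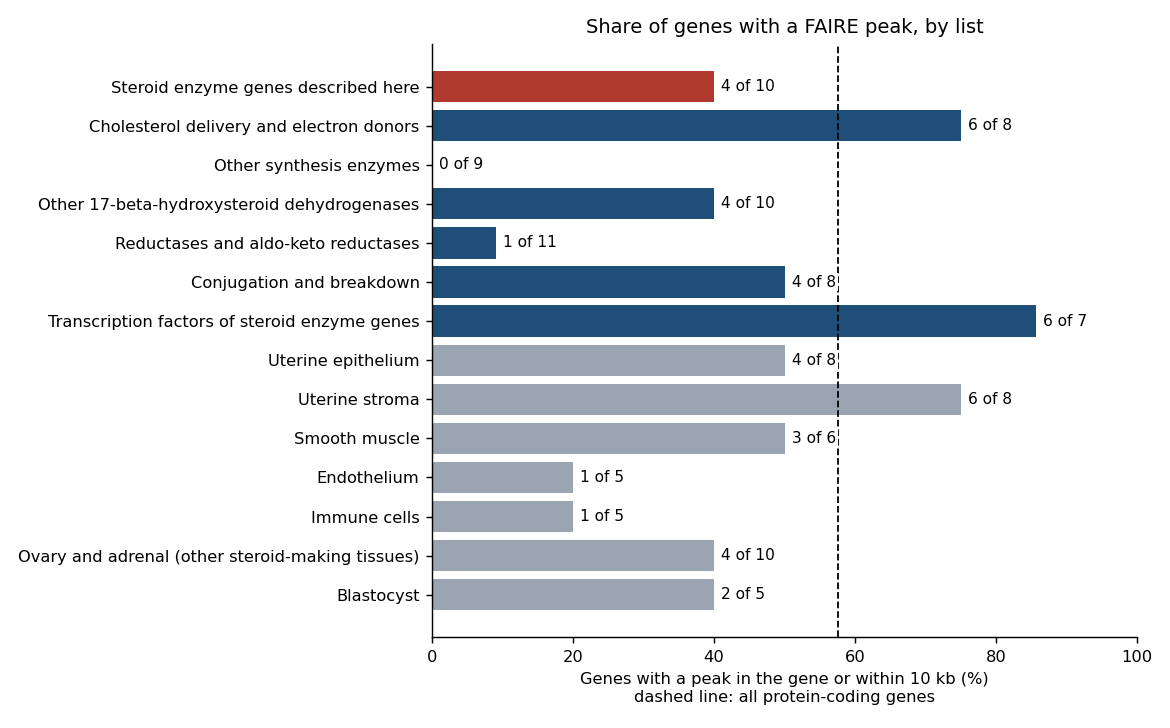
Share of genes with a peak inside them or at most 10 kb away for the 10 enzyme genes (red), 6 groups of other pathway genes (dark blue) and 7 lists of cell type markers (grey), with the number of genes beside each bar and a dashed line at 57.6% for all protein-coding genes. The bars run from 0 of 9 other synthesis enzymes to 6 of 7 transcription factor genes.

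Markers of uterine tissue and of other steroid-making organs were counted in the same way, beside the share of 57.6% over all protein-coding genes. Stromal markers had a peak in 6 of 8 (highest fold per gene 3.65 to 10.4), epithelial markers in 4 of 8 (4.75 to 6.94) and smooth muscle markers in 3 of 6 (4.45 to 5.04). Ovary and adrenal markers had one in 4 of 10 (4.01 to 5.37), at Amh, Foxl2, Inha and Nr5a1, while Star, Cyp17a1, Cyp11b1, Lhcgr, Fshr and Mc2r had none. Of these 10, Star, Cyp17a1, Cyp11b1 and Nr5a1 also stand among the pathway genes above. Defining markers of the labelled tissue without a peak were Krt8, Krt18, Krt19 and Foxa2 for epithelium, Vim and Pdgfra for stroma, and Acta2, Myh11 and Tagln for smooth muscle. Endothelial and immune markers had 1 of 5 each, and blastocyst markers 2 of 5. Some of these peaks lay nearer to another gene: the strongest peak counted for Cd68, the 1 immune marker, was nearest to Mpdu1, that for Pou5f1 to Tcf19, that for Actg2 to Dguok, that for Inha to Obsl1 and that for Hoxa10 to Hoxa11. The strongest peak was the same for the stromal markers Hoxa10 and Hoxa11. Accessible chromatin beside a marker is not its expression, and genes such as Vim and Acta2 are known to be active in the uterus, so the absence of a peak in this list does not show that a gene is silent.

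The enzyme genes also differed in the density of peaks around them. The 1 Mb centred on each gene held from 2 peaks (Akr1c18, among 16 protein-coding genes) to 30 (Hsd17b1, among 47), with a median of 5.5, against a median of 8 (interquartile range 4 to 14) around protein-coding genes in general. Hsd11b2 and Hsd17b1, both in gene-rich stretches, had 29 and 30. The 1 Mb around Hsd17b4 and Srd5a1 held 5 peaks each, so that their own peak was 1 of few. Around Hsd3b1 and Hsd17b2 there were 4 each, around Cyp19a1 6 and around Cyp11a1 11.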

How the data were processed

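FAIRE DNA of 3 whole-uterus samples (1 group, gestation day 4) was sequenced. Per the labels' protocols, 100 mg of tissue was crosslinked in 1% formaldehyde for 9 min and sheared to about 300 bp. The growth protocol speaks of 3 mice and the series' design text of RNA from 4. The group here is the 3 DNA samples. Bowtie2, FastQC, MACS2, HOMER and the build GRCm38.p5 are named per the submitters' processing notes. Not given in the sources used here were versions, the call threshold, any control and pooling. For each peak, per the file headers, the authors' list holds the pileup (a coverage signal), the fold enrichment (a ratio) and the −log10 of q. Local background was computed as (pileup + 1) / fold − 1. Depth per sample is unknown, so no counting interval is given.

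Gene spans came from a RefSeq table and promoter sequences from a RefSeq promoter table, both of GRCm38.p6, a patch release with the same chromosome numbering. Left out were 340 genes of any type with a start below 3 Mb (scaffold coordinates). A peak counted with an overlap of 1 bp or more, for every gene whose window it met. Percentiles are ranks within the list or the gene table. A search for 13 motifs covered both strands, beside those in the text TGACGTCA (the cAMP response element), TGACTCA (for AP-1), TTGCGCAA (C/EBP, a first form), TTGCACAA (C/EBP, a second form) and AGATAA (bound by Gata proteins), with overlapping matches each counted. The palindromic motifs were counted once per place. Genes were named by rule: all 10 enzyme genes, the gene nearest to each of their peaks, and, in each pathway group, up to 4 with the highest fold and up to 4 without a peak. Marker genes, the 2 further transcription factor genes with peaks and the genes listed by CpG count were named after their values were seen. The value of 1 gene of the conjugation group is not reported here. The members and lists were chosen with earlier results of these data known. No test was made, because peaks and genes of 1 list are not replicates. The overlap counts were tested on simulated data. Analysis used Python 3.11.15, pandas 2.3.3 and NumPy 2.4.6. The alternatives changed the window, the peaks kept and the gene a peak was given to.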

Additional observations from a re-analysis of the deposited data

How the results depend on the processing

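No paired analysis was possible because the list names no sample, and for the same reason no replicate could be left out. The count of enzyme genes with a peak stayed at 4 when the summit had to lie in the window, was 3 with 0 or 5 kb on each side (Hsd17b1 dropped out) and 6 with 50 kb (Hsd11b1 and Hsd17b2 came in, 12 peaks in all). It was 2 (2 peaks, at Hsd17b1 and Srd5a1) among the 6206 peaks with the highest fold and also among the 6206 with the highest −log10 q, and 2 (Hsd11b2 and Hsd17b4) with each peak given to the nearest gene end only, an alternative chosen after seeing the data. The share of protein-coding genes over these settings was 48.8% with 0 kb, 54.2% with 5 kb, 70.8% with 50 kb, 36.2% and 35.8% with the peaks of highest fold and −log10 q, and 45.9% with the nearest gene end. The share of the enzyme genes was lower in each case, with 6 of 10 at 50 kb. All these settings reuse the same 10 genes and 1 peak list, so they are not separate support. Keeping the scaffold genes, also added after seeing the data, gave 57.3%. Enzyme genes with a peak within 1 kb of an end fell from 3 to 1 (Srd5a1) with either reduced peak set and stayed at 3 in the other 4 alternatives. Of the other pathway genes, 13 and 10 had a peak with the reduced sets by fold and by −log10 q, where fewer peaks are counted, and 16 to 28 otherwise. The median fold of the enzyme gene peaks was 5.75 with 0 kb, 5.79 with 50 kb and 7.37 with the highest −log10 q. Unknown depth and calling threshold limit what an absent peak can mean.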

Other observations

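Of the 17 promoter windows of other pathway genes with 11 or more CpG dinucleotides, 9 overlapped a peak (52.9%), against 64.7% of all 13594 such windows. Of their 27 windows with fewer, 0 did, and since only 1.16% of all 19257 such windows had a peak, that count says nothing particular about these genes. The 9 belonged to Cebpb, Fdx1, Fdxr, Hsd17b12, Hsd17b7, Nr4a1, Por, Srd5a3 and Sult2b1. Genes with a window of 11 or more CpG dinucleotides and no peak over it included Srd5a2, which makes dihydrotestosterone in male accessory organs, Cyp1b1, Hsd17b8, Hsd17b10, Hsd17b11, Nr0b1 and Stard3. Of these, Cyp1b1, Hsd17b8 and Stard3 had a peak inside the gene or at most 10 kb away. Over all windows the share ran from 25.1% with 11 to 15 CpG dinucleotides to 82.3% with 21 or more, and the compared windows were not matched within that range.

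Shares of promoter windows with a motif, across the whole table, differed between windows with and without a peak for some motifs and little for CCAAT (35.8% and 38.0%). GGGCGG was in 78.1% of windows with a peak and 19.6% of those without, CACGTG in 11.1% and 5.67%, and GCATGCGC in 6.22% and 1.38%. AGATAA was in 3.38% and 14.1%, TATAAA in 4.16% and 17.2%, AAGGTCA in 2.21% and 5.67%, and ACANNNTGT in 2.28% and 8.57%. In their fixed letters the first 3 motifs hold a CG and the other 4 do not. Windows with a peak had a median of 27 CpG dinucleotides against 4 in those without. Of the remaining motifs, TGACGTCA was in 3.75% and 1.05%, and TTGCGCAA in 0.244% and 0.159%, both with a CG. TCANNNTGA was in 3.25% and 9.27%, TGACTCA in 2.46% and 6.24%, and TTGCACAA in 0.543% and 1.18%. The part of CpG content in these differences was not tested.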
